A study of Homo sapiens with 32 samples.

Results

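The noncoding RNAs described here are 10 short transcripts of RNA polymerase III: RN7SK (7SK), RN7SL1 and RN7SL2 (7SL), RMRP, RPPH1, RNY1, RNY3, RNY4 and RNY5 (the Y RNAs) and VTRNA1-1 (vault RNA). They were chosen by name, and their tags were counted on the gene's own strand within its body in hg19, out of 63839 annotated genes. A tag is a cDNA left after removal of PCR duplicates, assigned to the RNA base crosslinked to protein in iCLIP, in which UV light fixes protein to RNA in living cells and reverse transcription stops at the contact. Over 12 libraries, the 10 RNAs held 2764 of 2729065 tags, or 0.101%.

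The libraries came from FlipIn HEK293T cells, a line derived from human embryonic kidney that takes up a transgene at a fixed site. Stable lines carried FLAG-tagged Alyref or Chtop, both subunits of the mRNA export complex TREX, or FLAG-tagged Nxf1, the export receptor, and the Control expressed FLAG alone. Tetracycline was added for 48 h, and the dose was 10 ng/mL in the Alyref and Chtop lines but 5 ng/mL in the Nxf1 line. The labels do not give a dose for the Control, and the FLAG antibody was the same throughout. Each group had 3 libraries, and nothing in the labels says that these came from separate cultures, so that p-values measure the spread between these libraries, which may be technical. Depth ran from 81307 to 631704 tags for Alyref, from 47052 to 538844 for Chtop, from 8134 to 179346 for Nxf1 and from 7017 to 46628 for Control, with replicate 1 the shallowest in every group. Of the markers of the cell line, 4 of 4 (VIM, PAX2, NEFM and LIN28B) had a tag, though NEFM had only 1 over all libraries. Their summed level was 85.0 to 300 CPM (tags scaled to the library's total, as in all levels below). Of 5 markers of other cell types, 4 also had a tag, but these summed to at most 21.3 CPM.

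RNA polymerase III makes short, abundant RNAs that mostly end in a run of uracils and are not exported by the mRNA route. 7SK holds the elongation factor P-TEFb inactive, and 7SL is the RNA core of the signal recognition particle, which directs nascent secretory proteins to the endoplasmic reticulum. RMRP and RPPH1 are the RNAs of RNase MRP and RNase P, which process ribosomal and transfer RNA precursors. Y RNAs bind the Ro60 protein, and vault RNA is a part of the vault particle.

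The sequences of RNY1, RNY4, RNY5 and VTRNA1-1 are given whole, because the tags gathered on a part of each. They are the GRCh37 sense strand, 5′ to 3′, and the capitals mark the 30 bases with most tags over all libraries. In RNY1 the capitals held 45.3% of tags, while its Alyref tags were densest at nucleotides 20 to 49 (50.5%). The most tagged single bases of RNY1 (nucleotide 23, 9 tags in 9 libraries) and RNY4 (nucleotide 62, 7 tags) lay outside the capitals. These Y RNA genes lie on chromosome 7, at chr7:148684228-148684340 (RNY1, minus strand), chr7:148660407-148660502 (RNY4, plus strand) and chr7:148638580-148638658 (RNY5, plus strand, within an annotated lncRNA). VTRNA1-1 lies at chr5:140090860-140090958 on the plus strand, also within an annotated lncRNA.
RNY1: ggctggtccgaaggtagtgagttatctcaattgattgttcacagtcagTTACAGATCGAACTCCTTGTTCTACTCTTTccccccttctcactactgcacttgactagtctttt
RNY4: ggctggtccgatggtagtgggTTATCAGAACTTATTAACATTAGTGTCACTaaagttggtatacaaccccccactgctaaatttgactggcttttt
RNY5: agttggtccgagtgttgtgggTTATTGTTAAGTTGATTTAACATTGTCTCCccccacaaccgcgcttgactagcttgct
VTRNA1-1: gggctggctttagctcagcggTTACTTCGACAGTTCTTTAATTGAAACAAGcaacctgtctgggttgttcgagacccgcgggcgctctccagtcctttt

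For the longer RNAs, 80 bases around the most tagged stretch are given in the same way. The most tagged single bases of RMRP (nucleotides 53 and 56, 8 tags each) and RPPH1 (nucleotide 272, 6 tags) lay outside their stretches. RN7SK spans chr6:52860418-52860748 on the plus strand and the stretch is chr6:52860640-52860719. RMRP spans chr9:35657751-35658014 on the minus strand and the stretch is chr9:35657789-35657868. RPPH1 spans chr14:20811230-20811570 on the minus strand, within an annotated lncRNA, and the stretch is chr14:20811490-20811569.
RN7SK: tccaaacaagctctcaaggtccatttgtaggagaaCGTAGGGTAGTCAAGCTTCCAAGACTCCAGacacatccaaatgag
RMRP: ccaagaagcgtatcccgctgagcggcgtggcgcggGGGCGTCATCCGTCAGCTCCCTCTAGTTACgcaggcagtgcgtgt
RPPH1: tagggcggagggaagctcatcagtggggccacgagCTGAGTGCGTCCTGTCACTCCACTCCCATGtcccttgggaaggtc

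How much of each RNA could be seen was set by the mapping, since the authors kept uniquely mapped reads. RPPH1 and RNY5 were unique in the genome in 100% of their windows of 30 bases, RMRP in 99.1% and VTRNA1-1 in 88.6%. In contrast, RN7SK was unique in 9.9% of such windows, all 3′ of its midpoint, RN7SL2 in 3.7%, RNY1 in 3.6%, and RN7SL1, RNY3 and RNY4 in 0. The genome holds 2009 annotated copies of 7SK, 7SL and Y RNA. Tags on the other 6 RNAs came only from reads placed uniquely, so their levels also depend on read length, which is not given in the sources used here.

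In 7SL, 66.0% of RN7SL1 tags lay at nucleotides 225 to 254, and 56.8% of RN7SL2 tags lay at nucleotides 214 to 243. Of the windows of 40 bases 5′ of the midpoint, 0% were unique in either RNA. Among those 3′ of it, 6.2% were unique in RN7SL1 and 16.3% in RN7SL2. The part of mapping in these positions was not tested.

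The summed share of tags on the 10 RNAs was highest in the Control and in Nxf1. It was 0.365% ± 0.204 (SD, n = 3) in Control, 0.299% ± 0.0874 (SD, n = 3) in Nxf1, 0.135% ± 0.0992 (SD, n = 3) in Alyref and 0.0926% ± 0.0800 (SD, n = 3) in Chtop. Within Alyref and Chtop the shallow replicate 1 stood apart. Alyref replicate 1 gave 0.250% (exact 95% binomial interval 0.217 to 0.286), against 0.0727% (0.0662 to 0.0796) and 0.0834% (0.0763 to 0.0910) in replicates 2 and 3. Chtop gave 0.185% (0.148 to 0.228) against 0.0503% (0.0445 to 0.0566) and 0.0426% (0.0367 to 0.0492). In Nxf1 the shares were 0.344% (0.229 to 0.497), 0.354% (0.321 to 0.389) and 0.198% (0.178 to 0.220), and in Control 0.599% (0.432 to 0.808), 0.279% (0.233 to 0.331) and 0.219% (0.174 to 0.272). Intervals cover counting error only. Without Control replicate 1, the mean share in Nxf1 was 0.0498 percentage points above the Control instead of below it.

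**Figure D1:**
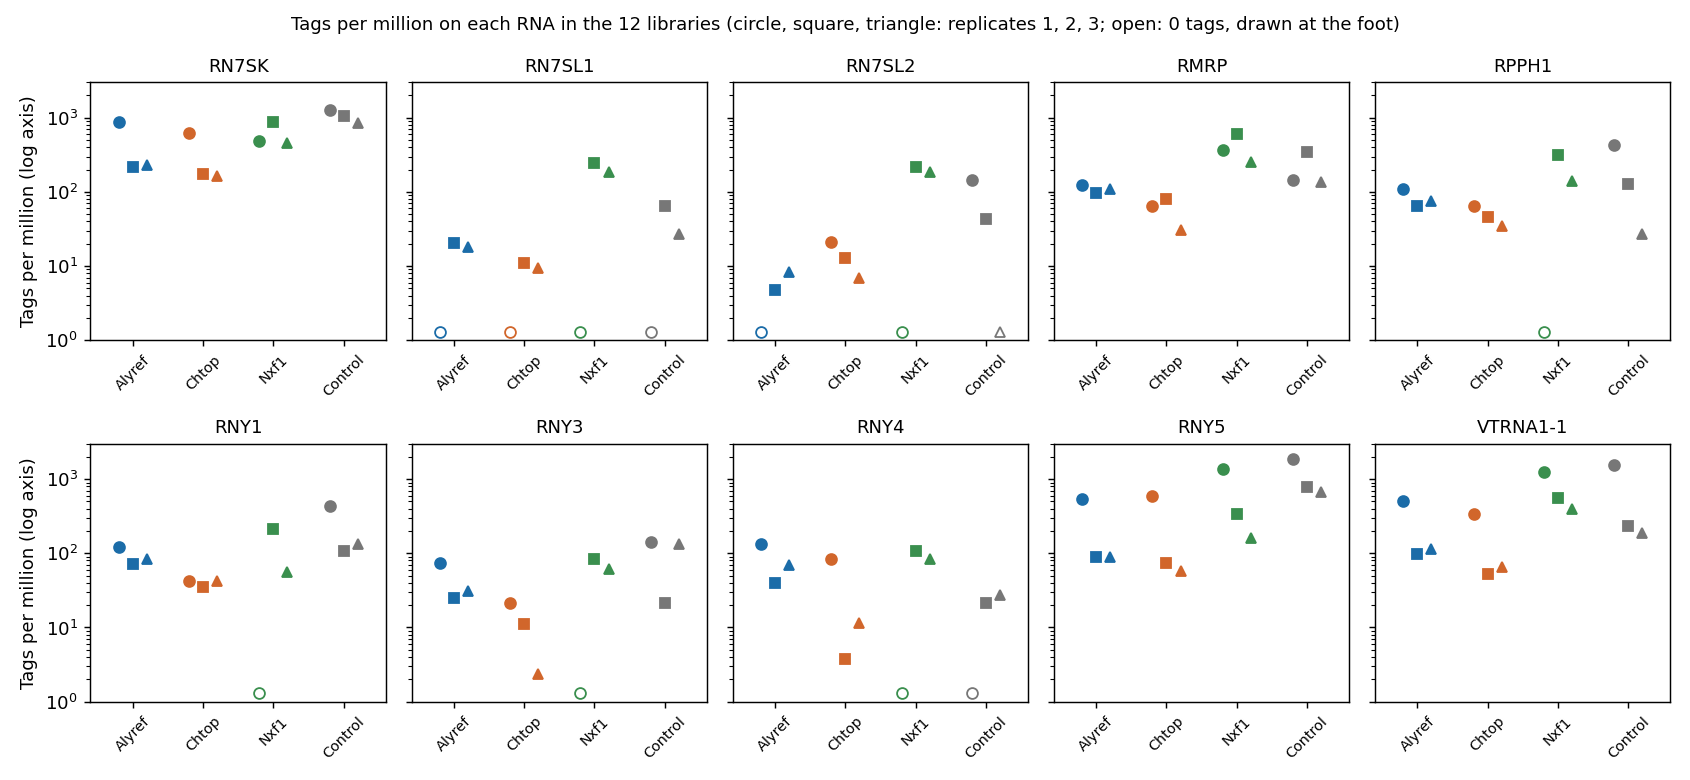
CPM (log axis) on each of the 10 RNAs in the 12 libraries, by group, with circles, squares and triangles for replicates 1, 2 and 3 and open symbols for 0 tags. RNY5 and VTRNA1-1 were highest in replicate 1 of every group. RMRP was higher in every Nxf1 library than in any Alyref or Chtop library, on 3 tags in Nxf1 replicate 1.

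The CPM of RNY5 and VTRNA1-1 was highest in the shallowest library of every group, and that of RN7SK in Alyref, Chtop and Control but not in Nxf1. RNY5 had 44, 57 and 53 tags in the Alyref libraries, 28, 40 and 25 in Chtop, 11, 40 and 29 in Nxf1 and 13, 36 and 25 in Control. Its tags thus stayed between 25 and 57 in the 10 libraries of 36978 to 631704 tags. On the CPM scale this made Alyref replicate 1 (541) far higher than replicates 2 (90.2) and 3 (87.9). The log2 ratio of the CPM in replicate 1 to the mean of replicates 2 and 3, with 1 tag added to each, was 2.61 for RNY5 in Alyref, and 0.415% of 3373 genes had a ratio as high. RN7SK gave 1.99 and VTRNA1-1 gave 2.27, against a median of -0.17 over those genes. RMRP, at 0.35, moved much less with depth. Chtop gave a like picture, with 3.17 for RNY5 and -0.15 for the median gene, whereas in Control the median gene itself was at 1.11, above RN7SK at 0.56. In Nxf1 the ratio was 2.53 for RNY5 and 1.49 for VTRNA1-1 but -0.13 for RN7SK, against 1.12 for the median gene. Of the 7 tested RNAs, 3 were above 0 in Nxf1. The added tag was 143 CPM in Control replicate 1 and 123 CPM in Nxf1 replicate 1. Ratios of genes with few tags in those libraries therefore depend largely on it. Its part in the medians of Control and Nxf1 was not tested. Across the 10 RNAs, 90.6% of tagged bases held a single tag in their library, and no base held more than 5.

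**Figure D2:**
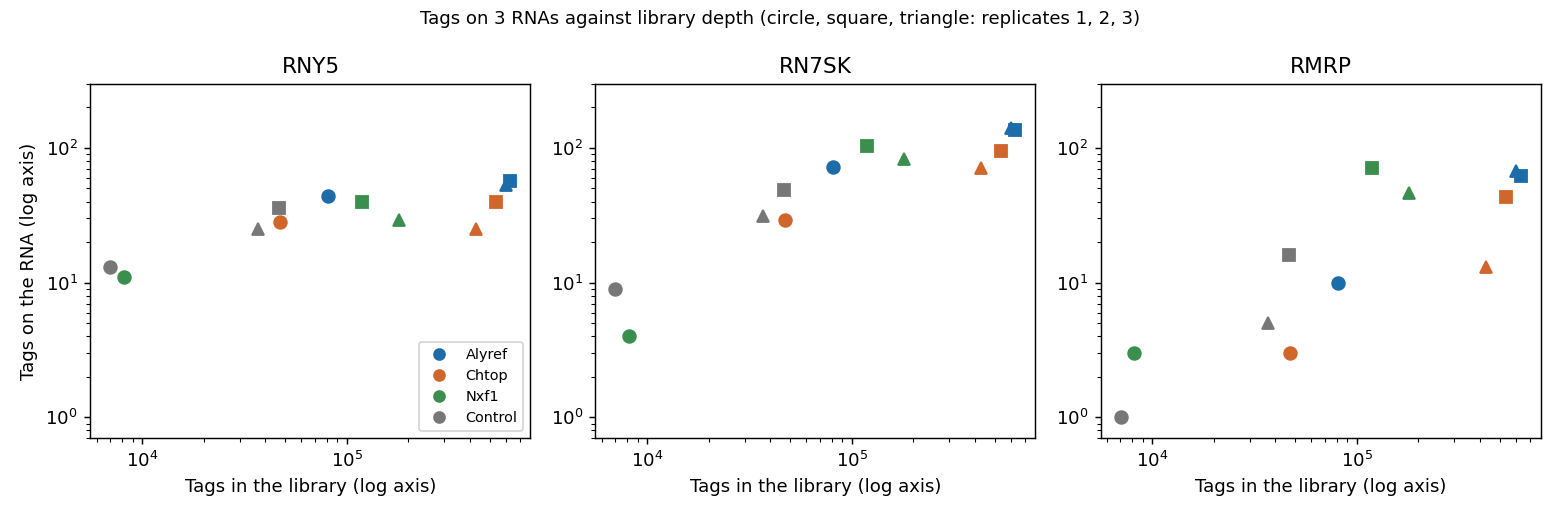
Tags on RNY5, RN7SK and RMRP against the tags in the library, both on log axes, with groups in colour and circles, squares and triangles for replicates 1, 2 and 3. RNY5 stayed between 25 and 57 tags in the 10 deeper libraries, and RMRP reached 71 tags in Nxf1 replicate 2 but 62 in Alyref replicate 2, which was deeper.

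The comparison of each factor with the FLAG-only Control asked whether these RNAs were recovered above the background of the procedure. No RNA was called higher than Control with any factor, beside 0% of all 3373 genes in Alyref, 8.89% in Chtop and 0% in Nxf1. In Alyref and Nxf1 the lack of such calls was thus not particular to these RNAs. Of the 10 RNAs, 7 passed the filter on low counts, and RN7SL1, RNY3 and RNY4 did not. In Chtop, 4 of these 7 were lower than in Control (edgeR quasi-likelihood test, adjusted p below 0.05), beside 5.48% of all 3373 genes called lower. In Alyref 0 were called, beside 0.0889% of all genes, and 3 had an unadjusted p under 0.05. In Nxf1 0 were called lower, beside 0.0296% of all genes, and the 1 with an unadjusted p under 0.05, RN7SL2, was higher in Nxf1, by a log2 fold change of 2.55. DESeq2 also called 0 lower in Alyref and 0 in Nxf1. RNY4, not tested, had 135, 39.6 and 69.6 CPM in Alyref against 0, 21.4 and 27.0 in Control, with no overlap. However, its Control libraries held 2 tags in all, and 0 tags in Control replicate 1 allows up to 428 CPM. RNY4 had 85.0, 3.71 and 11.6 CPM in Chtop and 0, 109 and 83.6 in Nxf1. RNY3 had 73.8, 25.3 and 31.5 CPM in Alyref and 21.3, 11.1 and 2.33 in Chtop. Its levels were 0, 83.9 and 61.3 CPM in Nxf1 and 143, 21.4 and 135 in Control.

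RN7SK, with 824 tags the most tagged of the 10, had 616, 176 and 165 CPM in Chtop against 1283, 1051 and 838 in Control, with no overlap. It was lower in Chtop by a log2 fold change of -1.85 ± 0.57 (SE, edgeR adjusted p = 0.0257). RNY5 had 595, 74.2 and 58.2 CPM in Chtop against 1853, 772 and 676 in Control, again with no overlap, and a log2 fold change of -2.64 ± 0.71 (SE, edgeR adjusted p = 0.0145). RMRP fell from 143, 343 and 135 CPM in Control to 63.8, 79.8 and 30.3 in Chtop (log2 fold change -2.13 ± 0.53, SE, edgeR adjusted p = 0.00854). RNY1 fell from 428, 107 and 135 CPM to 42.5, 35.3 and 41.9 and was 3.99-fold lower (log2 SE 0.66, edgeR adjusted p = 0.0383). Each of these Control levels rests on few tags, 22 in all for RMRP and 13 for RNY1. The number of RNAs called was 0 without Chtop replicate 3 and 2 without Chtop replicate 2, Control replicate 2 or Control replicate 3. DESeq2 called 2, losing RN7SK and RNY5. With 1 library left out, log2 fold changes ran from -2.42 to -1.34 for RN7SK, from -3.58 (without Chtop replicate 1) to -1.76 (without Chtop replicate 2) for RNY5 and from -2.68 to -1.26 for RMRP. RMRP was no longer called without Control replicate 2 (-1.26, edgeR adjusted p = 0.343) or Chtop replicate 3 (-1.66, edgeR adjusted p = 0.0530), and RNY1 was not called when any Control library was left out. With the replicate block, VTRNA1-1 was also lower in Chtop than in Control (-1.83, edgeR adjusted p = 0.00411), and RN7SK (-1.66, edgeR adjusted p = 0.0207) and RNY5 (-2.68, edgeR adjusted p = 1.41e-06) were lower in Alyref than in Control.

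Depth was not matched in that comparison, and its part in the result was not tested. Chtop replicate 1 (47052 tags) and Control replicate 2 (46628 tags) were nearly equal in depth. In this pair RN7SK had 29 tags in Chtop and 49 in Control, RMRP 3 and 16, RNY1 2 and 5, and RNY5 28 and 36. VTRNA1-1 had 16 in Chtop and 11 in Control, so the pair differed in the other direction there. With the shallow replicate 1 of every group left out, an alternative chosen after seeing the data, 10 RNAs passed the filter and 5 were lower in Chtop than in Control, beside 2.86% of 8665 genes. In the same fit 2 (RN7SK and RNY5) were lower in Alyref than in Control, beside 0.739%.

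Between factors, 7SL, RMRP and RPPH1 were tagged far more with Nxf1 than with either TREX subunit. Of the 7 RNAs tested, 3 were lower in Alyref than in Nxf1, beside 1.78% of all genes, and 5 were lower in Chtop than in Nxf1, beside 10.6%. None was called in the opposite direction, beside 2.88% of all genes higher in Alyref than in Nxf1 and 14.9% higher in Chtop than in Nxf1. Alyref and Chtop did not differ for any of the 7 at this threshold, though 2 had an unadjusted p under 0.05. Of all genes, 5.90% were called higher in Alyref than in Chtop and 9.81% lower.

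RN7SL2 had 0, 26 and 33 tags in Nxf1, against 0, 3 and 5 in Alyref and 1, 7 and 3 in Chtop. Nxf1 replicates 2 and 3 (218 and 184 CPM) lay above every Alyref and Chtop library, while replicate 1 had no tag, which allows up to 369 CPM. The log2 fold change was -5.11 ± 0.71 (SE, edgeR adjusted p = 1.79e-05) for Alyref against Nxf1 and -4.20 ± 0.70 (SE, edgeR adjusted p = 1.06e-04) for Chtop against Nxf1. RN7SL1, not in that fit, had 0, 29 and 33 tags in Nxf1, 0, 13 and 11 in Alyref and 0, 6 and 4 in Chtop.

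RMRP had 369, 596 and 256 CPM in Nxf1, 123, 98.1 and 111 in Alyref and 63.8, 79.8 and 30.3 in Chtop. Every Nxf1 library lay above every library of the other factors. However, Nxf1 replicate 1 and Chtop replicate 1 held 3 tags each, and 0 tags in Nxf1 replicate 1 would allow up to 369 CPM. Its log2 fold change was -2.16 ± 0.35 (SE, edgeR adjusted p = 2.48e-04) for Alyref against Nxf1 and -2.99 ± 0.38 (SE, edgeR adjusted p = 2.48e-06) for Chtop against Nxf1. The first call was lost without Nxf1 replicate 2, where the log2 fold change was -1.70. RMRP is nearly free of copies, so unique mapping did not limit it.

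RPPH1 had 0, 310 and 139 CPM in Nxf1, 111, 64.9 and 76.2 in Alyref and 63.8, 46.4 and 34.9 in Chtop. It overlapped between groups only through Nxf1 replicate 1, which had 0 tags. The log2 fold change was -1.72 ± 0.39 (SE, edgeR adjusted p = 0.00914) for Alyref against Nxf1 and -2.44 ± 0.43 (SE, edgeR adjusted p = 1.94e-04) for Chtop against Nxf1. The Alyref call was lost when Alyref replicate 2 or 3 or Nxf1 replicate 2 or 3 was left out, with DESeq2 and with no filter on low counts (-1.44, edgeR adjusted p = 0.0815).

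VTRNA1-1 had 1229, 562 and 390 CPM in Nxf1 and 340, 52.0 and 65.2 in Chtop, with no overlap (log2 fold change -2.68 ± 0.59, SE, edgeR adjusted p = 0.00163). In Alyref it had 504, 96.6 and 114 CPM, and the difference from Nxf1 missed the threshold (log2 fold change -1.71 ± 0.53, SE, edgeR adjusted p = 0.0564). RNY1 was lower in Chtop than in Nxf1 (log2 fold change -1.77 ± 0.49, SE, edgeR adjusted p = 0.00972), a call lost without Nxf1 replicate 2, with no filter on low counts and with DESeq2. DESeq2 called neither VTRNA1-1 nor RNY1 in this comparison. In the main edgeR fit, with all 12 libraries and no block on replicate number, neither RN7SK nor RNY5 was called between any factors. Their log2 fold changes for Chtop against Nxf1 were -1.28 ± 0.54 and -1.27 ± 0.71 (SE). With the replicate number as a block both were called in that comparison, at -1.55 (edgeR adjusted p = 0.00417) for RN7SK and -1.54 (edgeR adjusted p = 0.00289) for RNY5. The block also added Alyref against Nxf1 calls of RNY5 (-1.42, edgeR adjusted p = 0.0149) and VTRNA1-1 (-2.08, edgeR adjusted p = 1.67e-05). Without replicate 1 of every group, and with no block, RN7SK and RNY5 were both called lower in Alyref and in Chtop than in Nxf1. Without Chtop replicate 1 alone, both were called higher in Alyref than in Chtop. Those log2 fold changes were 1.26 for RN7SK (edgeR adjusted p = 0.0405) and 1.37 for RNY5 (edgeR adjusted p = 0.0275).

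**Figure D3:**
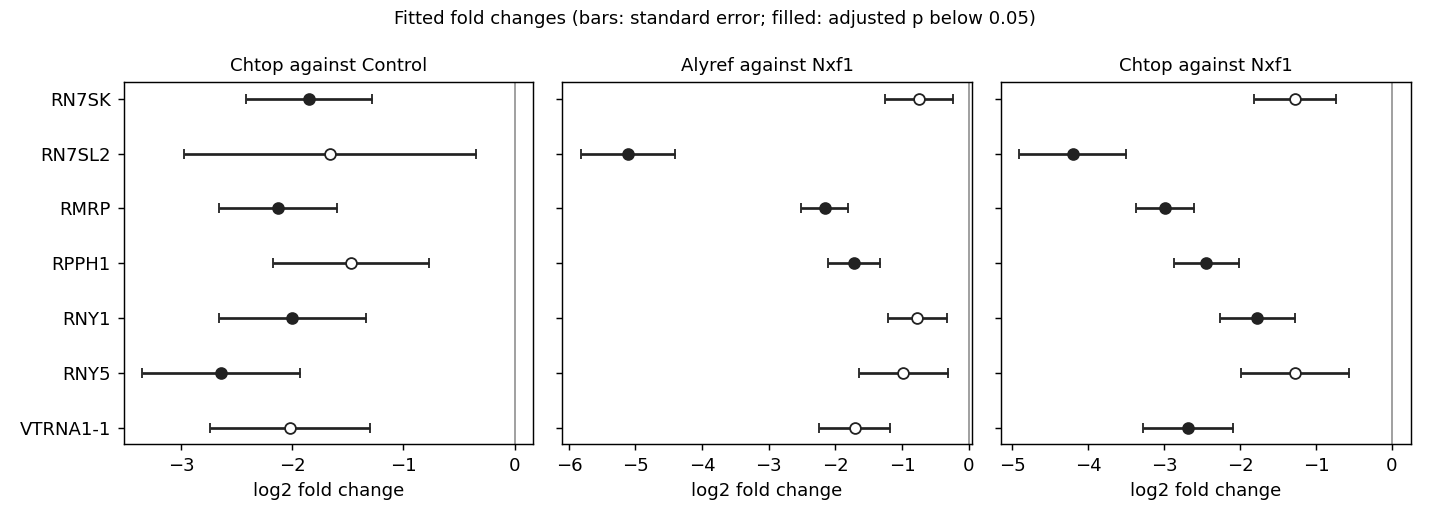
Log2 fold changes of the 7 tested RNAs in 3 comparisons, with bars for the standard error and filled points for an edgeR adjusted p below 0.05. RN7SL2, RMRP and RPPH1 were lower in Alyref and in Chtop than in Nxf1.

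Nxf1 libraries were shallower than the deep Alyref and Chtop libraries, so a pair of closer depth was also set side by side. Alyref replicate 1 (81307 tags) and Nxf1 replicate 2 (119191 tags) had 123 and 596 CPM on RMRP, 111 and 310 on RPPH1 and 0 and 218 on RN7SL2. By contrast they had 886 and 873 on RN7SK, 504 and 562 on VTRNA1-1 and 541 and 336 on RNY5. The differences for RMRP, RPPH1 and 7SL were therefore present in this pair, those for RN7SK and VTRNA1-1 were small, and RNY5 ran the other way. However, Nxf1 replicate 2 was the highest Nxf1 library for RMRP, RPPH1 and RN7SL2. It is also the library without which the Alyref against Nxf1 calls of RMRP and RPPH1 were lost. Without replicate 1 of every group, 7 of 10 RNAs were lower in Alyref than in Nxf1, beside 2.45% of 8665 genes, and 10 of 10 were lower in Chtop than in Nxf1, beside 8.41%. That fit sets Nxf1 libraries of 119191 and 179346 tags against libraries of 429573 to 631704 tags, and the part of depth in its counts was not tested.

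For 7SL and Y RNA the annotated copies held more tags than the genes themselves with each of the 3 factors. The 859 copies of 7SL held 416 Nxf1 tags, 95 Alyref tags, 46 Chtop tags and 5 Control tags, against 121, 32, 21 and 7 on RN7SL1 and RN7SL2. In replicates 1, 2 and 3, 7SL copies had 246, 948 and 1678 CPM in Nxf1 and at most 148 in any Alyref or Chtop library. The 855 copies of Y RNA had 2213, 4942 and 6379 CPM in Nxf1, 5867, 758 and 2113 in Alyref, 2040, 239 and 554 in Chtop and 713, 2059 and 6869 in Control. The 295 copies of 7SK held 655 Alyref tags and 368 Nxf1 tags, against 349 and 191 on RN7SK, but 116 Chtop tags and 40 Control tags, against 195 and 89 on RN7SK. Tags on copies within introns can come from the host transcript, and this was not separated.

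Per length, RNY5 and VTRNA1-1 had the highest group means of the 10 RNAs in every group. The full length was used, although only uniquely mapped reads were kept. Windows of 30 bases were unique for 100% of RNY5 and 88.6% of VTRNA1-1, but for 9.9% of RN7SK. RMRP (99.1%) and RPPH1 (100%) were also nearly all unique. The part of mapping in this order was not tested. RNY5 averaged 13927 CPM per kb in Control, 7804 in Nxf1, 3070 in Chtop and 3035 in Alyref. VTRNA1-1 averaged 6710, 7346, 1539 and 2408 in the same order, and RN7SK 3194, 1840, 965 and 1344. The Control mean of VTRNA1-1 rests on replicate 1, as its libraries had 15835, 2383 and 1912 CPM per kb against 3875, 3175 and 2533 for RN7SK. RN7SK was thus above VTRNA1-1 in Control replicates 2 and 3, and also in Chtop replicate 2 (533 against 525). The RNY5 means of the factors rest on replicate 1 as well. RNY5 had 17118, 4248 and 2047 CPM per kb in Nxf1, 6850, 1142 and 1112 in Alyref and 7533, 940 and 737 in Chtop. VTRNA1-1 was above RNY5 in Nxf1 replicates 2 (5678) and 3 (3942) and in Alyref replicate 3 (1155).

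In RN7SK, 10.3% of tags lay 5′ of the midpoint, where no window of 30 or 40 bases is unique, and 29.6% lay at nucleotides 258 to 287. Its single most tagged base was nucleotide 233, outside that stretch, with 14 tags in 7 libraries. In RNY5, the densest 30 nucleotides began at nucleotide 21 or 22 in every group and held 57.8% of Alyref tags, 74.2% of Chtop tags and 77.0% of Control tags. Nucleotide 49, a uracil within the capitals above, was tagged 34 times and in 12 of 12 libraries, with 12 tags in Alyref, 9 in Chtop, 7 in Nxf1 and 6 in Control. In VTRNA1-1, nucleotides 22 to 51 held 54.7% of tags and nucleotide 37 was tagged 20 times. In RMRP, 27.1% of tags lay at nucleotides 182 to 211 and 43.5% 5′ of the midpoint.

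**Figure D4:**
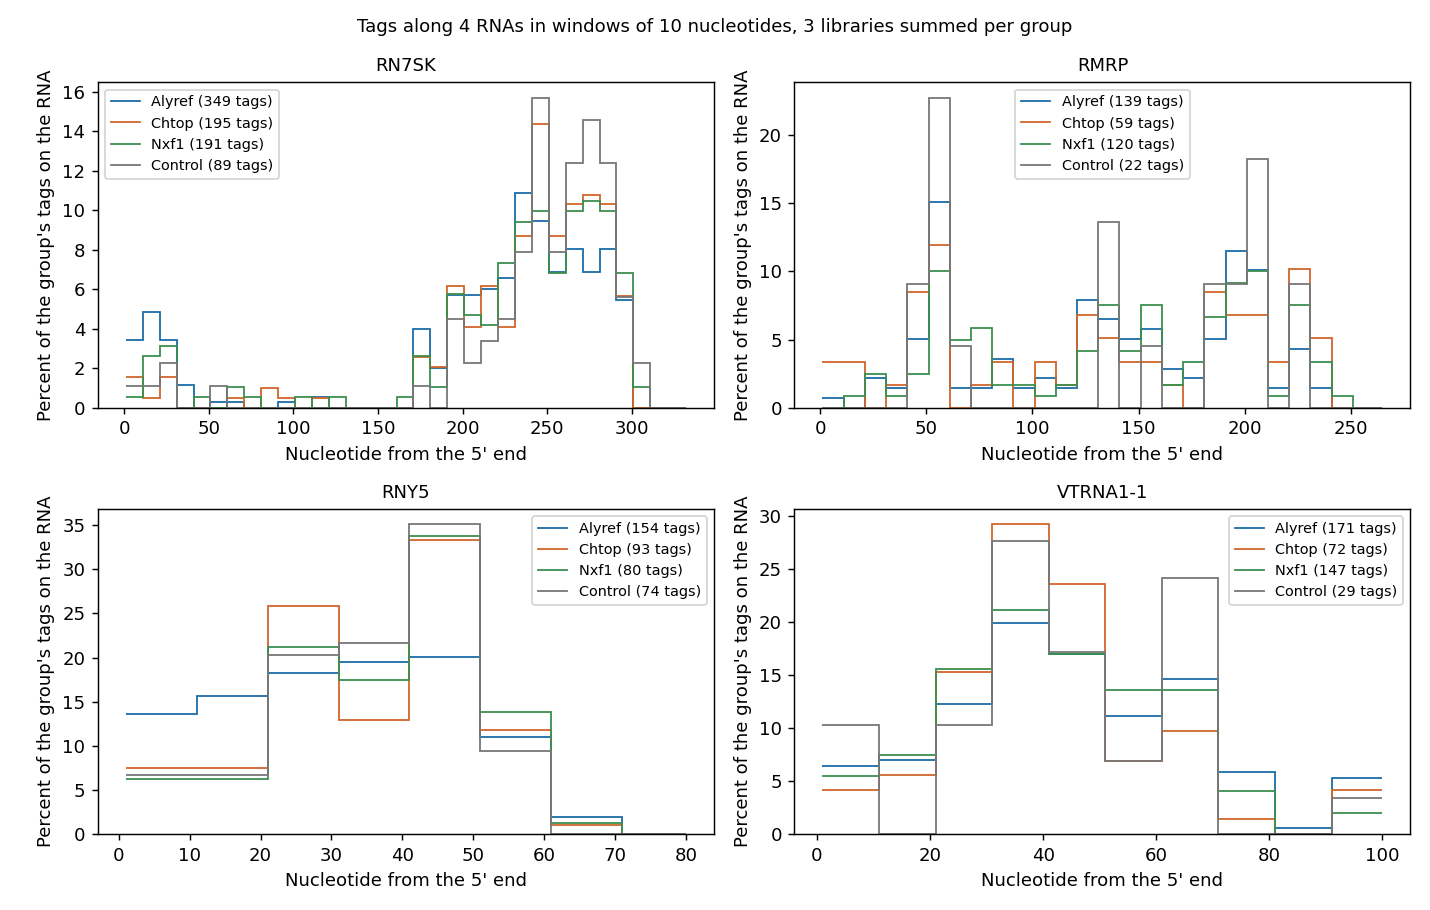
Percent of each group's tags in windows of 10 nucleotides along RN7SK, RMRP, RNY5 and VTRNA1-1, with the 3 libraries of a group summed. In RN7SK most tags of every group lay beyond nucleotide 170, and the Alyref share was the largest in each window up to nucleotide 40. Alyref also had a larger share of its tags than the other groups in the first 20 nucleotides of RNY5.

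The percent of tags 5′ of the midpoint was compared between each group and the other groups for RN7SK, RNY5 and VTRNA1-1, the RNAs with 10 or more tags in enough libraries. None of the 12 comparisons passed after adjustment. The largest departure was Alyref on RNY5, with 66.2% ± 0.405 (SD, n = 3) there against a mean of 51.0% in the other 9 libraries (two-sided exact permutation test, p = 0.0227, Benjamini-Hochberg adjusted p = 0.200). For RN7SK, Alyref had 13.1% ± 5.42 (SD, n = 3) against 6.44% in the other libraries (exact permutation p = 0.0333, adjusted p = 0.200). The smallest p these designs allow was 0.00455 for RNY5 and 0.00833 for RN7SK.

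A tag at the base just before the 5′ end marks a cDNA that ran to the end of the RNA. Such tags were found for 9 of the 10 RNAs, 10 to 15 each, and 0 for RMRP. RMRP had 12 tags 2 to 60 bases upstream of its annotated 5′ end, against at most 6 for any other of the 10. Its 0 thus depends on where that end is placed, which was not tested. The 3′ ends were free of tags, the last tag lying 12 to 29 nucleotides from the end in the 9 RNAs other than VTRNA1-1. The authors kept only reads of over 15 nucleotides, so tags nearer the end could hardly be seen. VTRNA1-1 differed, with 33 tags in the 15 bases past its annotated end in 8 libraries, in a region that an annotated lncRNA also covers.

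Uracil was the crosslinked base in 35.6% to 38.7% of tags as group means, with SDs of 2.20 to 4.03 (n = 3). In every RNA the share exceeded the uracil content of its tagged span, by 1.16-fold in RN7SL2 to 2.15-fold in RPPH1 (36.0% of tags, 16.7% of bases). Control (38.7% ± 2.25, SD, n = 3) and the factors differed little, the Control mean lying within 1 SD of the mean of each factor.

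Other short RNAs were set beside these. Of 28 further Pol III genes, 10 had a tag and only RNA5S9, a 5S ribosomal RNA gene, could be tested. It was lower in Chtop than in Nxf1 (log2 fold change -2.44 ± 0.57, SE, edgeR adjusted p = 0.00285) and lower than in Control (-3.02 ± 0.65, edgeR adjusted p = 0.00336). Of 12 short RNAs of RNA polymerase II, 5 were tested. Of these, 5 were lower in Chtop than in Nxf1 (beside 10.6% of all genes) and 4 lower in Alyref than in Nxf1 (beside 1.78%), while 3 were lower in Chtop than in Control (beside 5.48%) and 1 lower in Alyref than in Control (beside 0.0889%). RNU4-2, a U4 spliceosomal RNA, had a log2 fold change of -2.72 ± 0.37 (SE, edgeR adjusted p = 1.79e-05) for Alyref against Nxf1. The genes of 30 protein partners of these RNAs, counted over their whole bodies with introns, gave 2 tested genes. Of these, CCNT2, a cyclin of P-TEFb, was higher in Chtop than in Nxf1 (log2 fold change 1.40 ± 0.40, SE, edgeR adjusted p = 0.0117), beside 14.9% of all genes. CCNT2 was also higher in Chtop than in Control (3.00 ± 0.77, SE, edgeR adjusted p = 0.0112), beside 8.89% of all genes. The genes whose log2 CPM over 12 libraries was most like that of RN7SK were RNU5F-1 (Pearson r 0.93), RNU2-70P (0.92), AGBL5 (0.90), RNA5-8SP4 (0.90) and ANKRD30BL (0.90). These points share their library's depth and no p is given.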

How the data were processed

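The deposited values were counts of deduplicated iCLIP tags at each crosslinked base, 1 file per library. Per the labels and the study's methods, the authors removed phiX reads (Bowtie 1.1.2), extracted random barcodes and collapsed duplicates (UMI-tools 0.5.3), kept uniquely mapped reads (STAR 2.4.2a, hg19) and merged the 32 lane runs into 12 libraries. The 4 pooled files were not used.

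Tags were assigned on the same strand to GRCh37 gene bodies (GENCODE release 44 mapped to GRCh37). RN7SL1 and RPPH1 were placed by sequence match. Tags in several other genes were left out of the gene counts. Windows of 20, 30 and 40 bases were searched in the genome on both strands. Counts of all genes were tested in 1 fit with edgeR 4.0.16 (R 4.3.3, TMM, filterByExpr, quasi-likelihood, Benjamini-Hochberg). DESeq2 1.42.0 was an alternative. In data simulated for Alyref against Control over 3373 genes, 22.8% of genes changed 4-fold and 1.23% changed 2-fold were called, so that power was low. Shares had exact 95% binomial intervals, and a count of 0 allows 3 tags. Named genes were all 10 RNAs, the called or most tagged genes of each list, and the 5 genes most like RN7SK. Members and lists were chosen with earlier results of these data known. Some sequences are not reported here.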

Additional observations from a re-analysis of the deposited data

Results flagged for a closer look

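Tags just before the 5′ end lie outside the gene bodies and entered no comparison. For RN7SL2 in Alyref there were 5 such tags, for RNY4 in Alyref 5, and for RNY4 in Chtop 3, with at least 1 in each library of that factor and 0 in the Control. They are listed because every library of the factor exceeded every Control library. The Control libraries were shallower, and 0 tags in the deepest of them still allows 64.3 CPM, above the highest factor level of 21.3 CPM.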

How the results depend on the processing

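Counts of RNAs called depended on the libraries more than on the counting. RNAs lower in Chtop than in Control numbered 4, 2 with DESeq2, 1 with no filter on low counts and 0 to 6 with 1 library left out. RNAs lower in Alyref than in Control numbered 0, 2 with the replicate block, 2 without replicate 1 of every group and 0 to 3 with 1 library left out. RNAs higher in Alyref than in Chtop numbered 0, and 1 with no filter, with bodies extended by 5 bases or without replicate 1 of every group, and 0 to 5 with 1 library left out. RNAs lower in Alyref than in Nxf1 numbered 3, 5 with the replicate block, 1 with tags in overlapping genes left out, 7 without replicate 1 of every group and 1 to 7 with 1 library left out. RNAs lower in Chtop than in Nxf1 numbered 5, 7 with the replicate block, 3 with DESeq2, 8 with extended bodies, 2 with overlapping genes left out, 10 without replicate 1 of every group and 4 to 10 with 1 library left out. With overlapping genes left out only 3 RNAs could be tested, not RN7SL2 or RPPH1, and up to 10 with extended bodies, no filter or a library left out. The causes were otherwise not tested. Correlations of the deviations of same-numbered libraries ran from -0.167 to 0.253, not all over 0.1, so the data do not show pairing, but the number also goes with sequencing lanes and with depth. With 1 library left out, the difference in summed share from Control ran from -0.303 to -0.114 percentage points for Alyref, from -0.346 to -0.156 for Chtop and from -0.140 to 0.0498 for Nxf1. Directions of log2 fold changes turned only where the main fit made no call. For RN7SK and RNY5 in Alyref against Chtop, a call was made without Chtop replicate 1. RNY1 in Nxf1 against Control became 0.04 with no filter, ran from -1.21 to 0.29 with 1 library left out and was 0.18 without replicate 1 of every group, and in Alyref against Nxf1 it ran from -1.28 to 0.27. In Alyref against Chtop, RN7SK ran from -0.36 to 1.26 and RNY5 from -0.68 to 1.37 with 1 library left out, and RNY5 became -0.13 with DESeq2. With 1 library left out, the difference in the share 5′ of the midpoint ran from -6.77 to 3.59 for RNY5 in Chtop, from -6.17 to 4.60 for RNY5 in Control, from -7.28 to 12.7 for VTRNA1-1 in Nxf1 and from -0.709 to 5.08 for VTRNA1-1 in Control.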
